A study of Mus musculus with 6 samples.

Results

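Of 9 genes for sodium, chloride, bicarbonate and monocarboxylate transport across the gut epithelium, 7 differed in level between arrays labelled Gata4Gata6 cKO and arrays labelled control, 4 of them higher and 3 lower. Of all genes tested 12.9% differed, 5.52% higher and 7.42% lower, and the 9 were chosen with these results known. The monocarboxylate carrier gene Slc5a8 rose 23.2-fold and the sodium/proton exchanger gene Slc9a2 rose 3.71-fold, while a second exchanger gene of the same family, Slc9a3, was 11.5-fold lower. The chloride channel gene Cftr and the bicarbonate cotransporter gene Slc4a4 also rose, and the anion exchanger gene Slc26a3 and the sodium channel gene Scnn1a also fell. The anion exchanger gene Slc26a6 and the cotransporter gene Slc12a2 did not pass the test.

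The 9 genes were named for their function out of 19938 genes measured, with this comparison's results already known. They were therefore selected on the same values that are given here, and their levels, changes and calls are a description with no p-value. Each has 1 probe set annotated to it alone, so the rule of taking the probe set with the highest mean left nothing to choose. The study compared isolated epithelial cells of the small intestine at E18.5, a stage in days of embryonic development, on 6 whole-transcript arrays. Of these, 3 were labelled as double conditional knockout of Gata4 and Gata6 (cKO), which encode zinc finger transcription factors expressed in gut endoderm, and 3 were labelled control. The sources used here do not give the Cre driver, the deleted exons, the strain, the genotype of the controls, or whether an array held RNA of 1 animal or several. The p-values below therefore measure the spread between these arrays, which may be technical. Each array gave 1 log2 level per probe set, with array medians between 7.73 and 7.84.

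In the small intestine, sodium enters absorptive cells partly through sodium/proton exchangers of the brush border, working beside chloride/bicarbonate exchangers in the same membrane, so that salt is taken up with water following. Secretion runs the other way. Chloride and bicarbonate are loaded across the basolateral membrane by cotransporters and leave through an apical channel. Sodium channels of the apical membrane and the sodium-coupled carrier for lactate and short-chain fatty acids are best known from the colon.

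The label check came first. Gata4 stood at 11.34, 11.39 and 11.51 on the arrays labelled cKO, against 10.95, 10.93 and 10.96 on the arrays labelled control. Gata6 stood at 12.72, 12.69 and 12.72 on the arrays labelled cKO, against 12.23, 12.28 and 12.27 on the arrays labelled control. Both transcripts were thus higher where the label says knockout, by 0.47 ± 0.075 and 0.45 ± 0.065 (log2 change ± SE, n = 3 in each group, limma adjusted p = 0.0101 and 0.0067). Neither call held without the arrays cKO 2 and control 3, which are described next (limma adjusted p = 0.0646 and 0.0503), though the changes were then 0.48 and 0.47. A probe set sums probes along the whole gene, so signal from exons outside a deletion is counted too, and these values do not check the labels. Every direction in the text rests on the labels alone.

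The array cKO 2 stood apart from the other arrays labelled cKO in markers of other cell types. Control 3 did not stand apart across all probe sets. It correlated with control 1 and control 2 at 0.974 and 0.976, against 0.976 between control 1 and control 2. The 8 hepatocyte markers averaged 12.74 on cKO 2, 8.50 on cKO 1 and 8.55 on cKO 3, against 9.72, 7.79 and 10.99 on control 1, 2 and 3. The erythroid, immune and endothelial markers were also highest on cKO 2. The defining intestinal epithelial markers (Epcam, Cdh1, Vil1, Cdx2, Krt8, Krt18 and Krt20) were high everywhere, with list means of 12.05 to 12.21 on the arrays labelled cKO and 11.95 to 12.00 on the arrays labelled control. Of these 7 markers 2 rose, Epcam and Krt8, each by 0.32 (limma adjusted p = 0.0372 and 0.0454), and both passed with cKO 2 left out but not with any other array left out (adjusted p up to 0.143). Results are therefore also given without cKO 2 and control 3, the control array with the highest hepatocyte level.

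**Figure D1:**
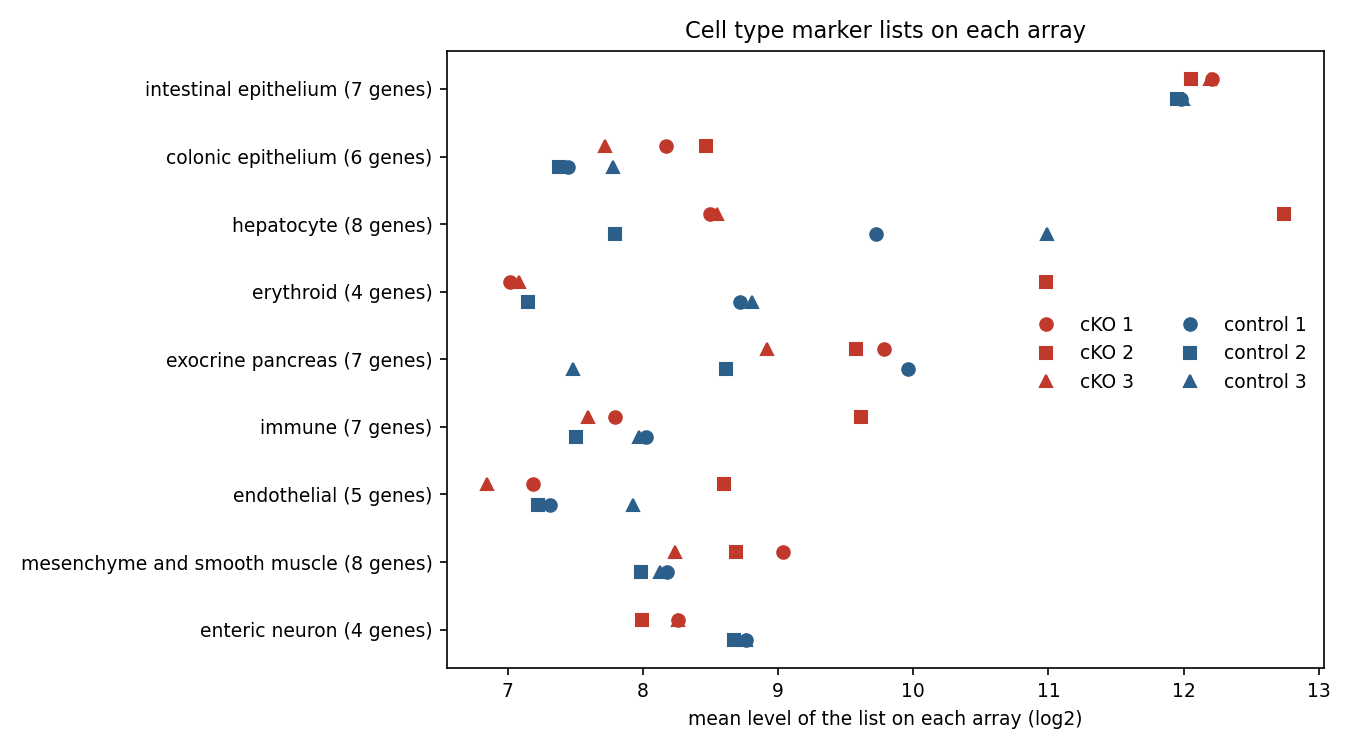
Mean log2 level (horizontal axis) of each cell type marker list on each of the 6 arrays, with red symbols for arrays labelled cKO above blue symbols for arrays labelled control. The hepatocyte mean reaches 12.74 on cKO 2, while the intestinal epithelial mean stays between 11.95 and 12.21 on all 6 arrays.

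The promoter windows of the genes with the largest rise and the largest fall, and of Slc26a3, are shown because the study concerns factors that bind DNA at GATA letters. They are RefSeq windows of build GRCm38.p6, each from 250 bases before to 50 bases after an annotated transcript start and 300 bases long, all on the plus strand, written 5′ to 3′. Slc5a8 lies on chromosome 10 (chr10:88885742-88886041), Slc9a3 on chromosome 13 (chr13:74121163-74121462) and Slc26a3 on chromosome 12 (chr12:31437969-31438268). Capitals mark matches to the letters searched.
Slc5a8: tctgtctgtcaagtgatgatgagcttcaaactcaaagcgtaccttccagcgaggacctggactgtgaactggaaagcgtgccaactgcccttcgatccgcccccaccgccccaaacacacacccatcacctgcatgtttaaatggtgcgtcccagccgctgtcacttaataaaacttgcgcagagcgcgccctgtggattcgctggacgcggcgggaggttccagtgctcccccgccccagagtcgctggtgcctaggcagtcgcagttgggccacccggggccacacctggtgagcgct
Slc9a3: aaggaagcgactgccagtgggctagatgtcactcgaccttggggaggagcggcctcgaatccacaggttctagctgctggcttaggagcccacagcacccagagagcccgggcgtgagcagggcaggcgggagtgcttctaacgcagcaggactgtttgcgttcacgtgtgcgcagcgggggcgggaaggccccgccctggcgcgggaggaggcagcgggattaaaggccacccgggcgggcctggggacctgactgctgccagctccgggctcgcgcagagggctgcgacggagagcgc
Slc26a3: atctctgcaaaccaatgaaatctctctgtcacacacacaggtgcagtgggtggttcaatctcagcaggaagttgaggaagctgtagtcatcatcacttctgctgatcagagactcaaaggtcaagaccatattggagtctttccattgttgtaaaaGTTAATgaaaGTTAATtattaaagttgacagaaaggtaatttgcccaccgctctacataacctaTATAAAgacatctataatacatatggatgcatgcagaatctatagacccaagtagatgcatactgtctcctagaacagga

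Windows matched 6 of the 9 genes, namely Slc9a3, Slc26a3, Slc26a6, Slc5a8, Cftr and Slc4a4, the last with a pair of starts, which makes 7 windows. Slc9a2, Slc12a2 and Scnn1a were not among the matches. The GATA letters AGATAA or AGATAG or TGATAA or TGATAG, on either strand, occurred in 0 of the 7 windows and in 29.8% of 32851 windows of all genes. The half-site letters GTTAAT of HNF1 factors, on either strand, occurred in 1 of the 7, that of Slc26a3, where they stand 94 and 84 bases before the start, and in 7.10% of all windows. The letters TTTATA and TTTATG, typical of CDX factors, occurred on either strand in 22.9% of all windows and among the 7 only in that of Slc26a3. There the letters TTTATA lie on the strand opposite to the printed one, which reads TATAAA 30 bases before the start. TATAAA are also the letters of a TATA box. No match says only that these letters are not in these windows.

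Of all genes tested, 12.9% passed an adjusted p of 0.05, with 5.52% higher in the group labelled cKO and 7.42% lower. Among the 9 genes, 7 passed, 4 higher and 3 lower. Because the genes were chosen with this comparison known, nothing is read from that share. The groups did not overlap for 8 of the 9, as for 32.6% of all genes. The median change was 0.45 over the 9 genes and −0.01 over all genes, and the median size of a change regardless of sign was 0.96 and 0.15. No detection call was used, and the levels of Slc9a3 and Scnn1a on the arrays labelled cKO, and of Slc5a8 and Slc9a2 on the arrays labelled control, may lie near background, so that their folds may be understated. In RNA from many cells, fewer cells of a type and less RNA per cell cannot be told apart.

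**Figure D2:**
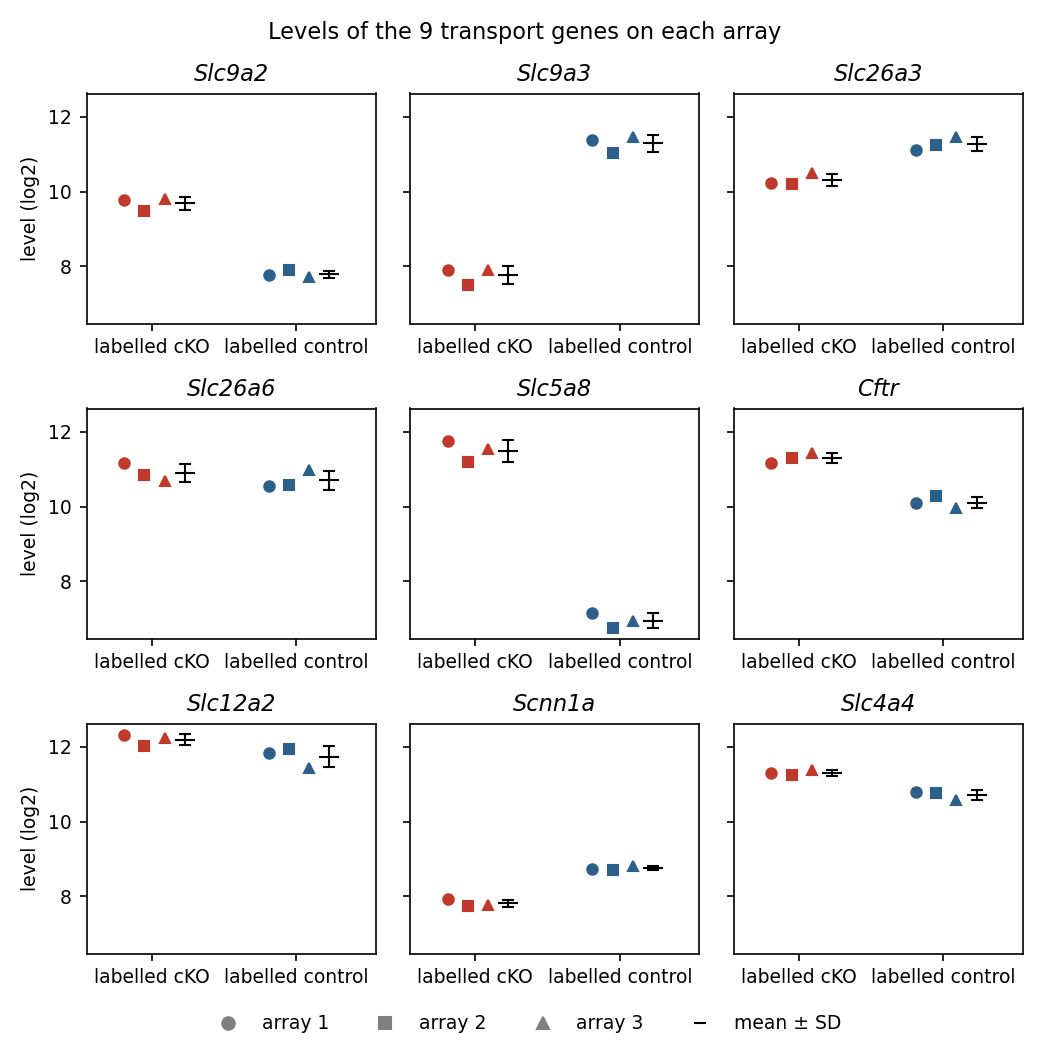
Log2 level (vertical axis) of each of the 9 genes on the arrays labelled cKO (red, left) and the arrays labelled control (blue, right), with symbols for array 1, 2 and 3 and a bar for mean ± SD. Slc5a8 sits between 11.18 and 11.74 on the arrays labelled cKO and at or below 7.15 on the arrays labelled control, Slc9a3 shows the opposite order, and only Slc26a6 has overlapping groups.

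Among the sodium/proton exchangers the fall of Slc9a3 was the largest change. Slc9a3 encodes the brush border exchanger that carries much of the sodium uptake of small intestinal enterocytes. Its level was 7.90, 7.50 and 7.90 on the arrays labelled cKO, against 11.38, 11.03 and 11.45 on the arrays labelled control. No array labelled cKO came within 3.13 of an array labelled control. The change was −3.52 ± 0.16 (log2, SE, 95% interval −3.90 to −3.14), which is the 7th largest fall of all genes. Without cKO 2 and control 3 it was −3.31.

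Slc9a2 encodes another apical sodium/proton exchanger of the gut and moved the opposite way. It stood at 9.78, 9.47 and 9.79 on the arrays labelled cKO, against 7.77, 7.89 and 7.71 on the arrays labelled control. All arrays labelled cKO were above all arrays labelled control, by at least 1.58. The change was 1.89 ± 0.11 (95% interval 1.62 to 2.16), and 1.96 without cKO 2 and control 3.

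The exchanger that faces the same lumen for chloride, encoded by Slc26a3, fell by less than Slc9a3. This apical chloride/bicarbonate exchanger is the gene mutated in congenital chloride diarrhoea in humans. Its level was 10.24, 10.20 and 10.50 on the arrays labelled cKO, against 11.10, 11.25 and 11.47 on the arrays labelled control. The groups were 0.60 apart at their closest. The change was −0.96 ± 0.13 (1.95-fold lower, 95% interval −1.27 to −0.65), and −0.81 without cKO 2 and control 3.

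Slc26a6, an apical anion exchanger that also carries oxalate, was the one gene whose groups overlapped. It stood at 11.17, 10.83 and 10.68 on the arrays labelled cKO, against 10.54, 10.57 and 10.98 on the arrays labelled control. The highest control value lay above 2 of the 3 values labelled cKO. The difference was 0.20 ± 0.17, with a 95% interval of −0.22 to 0.61, and it did not pass. The interval runs up to a 1.53-fold rise, so these 6 arrays do not show that the gene was unchanged.

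Slc5a8 had the largest rise of the 9 and the 4th largest of all genes. It encodes a sodium-coupled carrier that takes up lactate, butyrate and other monocarboxylates, known mainly from colon and kidney. Its level was 11.74, 11.18 and 11.53 on the arrays labelled cKO, against 7.15, 6.75 and 6.94 on the arrays labelled control. The groups were at least 4.03 apart. The change was 4.54 ± 0.17 (95% interval 4.13 to 4.95). Without cKO 2 and control 3 it was 4.69.

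The genes of the chloride secretion route differed by smaller amounts. Cftr encodes the cAMP-activated chloride and bicarbonate channel of the apical membrane, which in the intestine is strongest in crypts. It stood at 11.15, 11.29 and 11.42 on the arrays labelled cKO, against 10.09, 10.27 and 9.96 on the arrays labelled control. The groups were 0.88 apart at their closest, and the change was 1.18 ± 0.11 (2.27-fold, 95% interval 0.91 to 1.45), or 1.11 without cKO 2 and control 3.

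Slc4a4 encodes the basolateral cotransporter that brings bicarbonate into the cell with sodium. It stood at 11.30, 11.23 and 11.38 on the arrays labelled cKO, against 10.80, 10.76 and 10.57 on the arrays labelled control. All arrays labelled cKO were higher, by at least 0.43, and the change was 0.59 ± 0.091 (1.51-fold, 95% interval 0.37 to 0.81). Without cKO 2 and control 3 it was 0.56.

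Slc12a2, the basolateral sodium-potassium-chloride cotransporter that loads chloride for secretion, did not pass the test. It stood at 12.32, 12.02 and 12.22 on the arrays labelled cKO, against 11.83, 11.95 and 11.42 on the arrays labelled control. The groups did not overlap, but only 0.07 separated cKO 2 from control 2. The difference was 0.45 ± 0.16 (95% interval of that gene alone 0.07 to 0.83), and 0.38 without cKO 2 and control 3.

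Scnn1a encodes the alpha subunit of the epithelial sodium channel, the aldosterone-regulated route of sodium uptake in the distal colon. It stood at 7.93, 7.75 and 7.76 on the arrays labelled cKO, against 8.74, 8.71 and 8.82 on the arrays labelled control. The groups were 0.78 apart. The change was −0.94 ± 0.082 (1.92-fold lower, 95% interval −1.14 to −0.75), and −0.88 without cKO 2 and control 3.

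**Figure D3:**
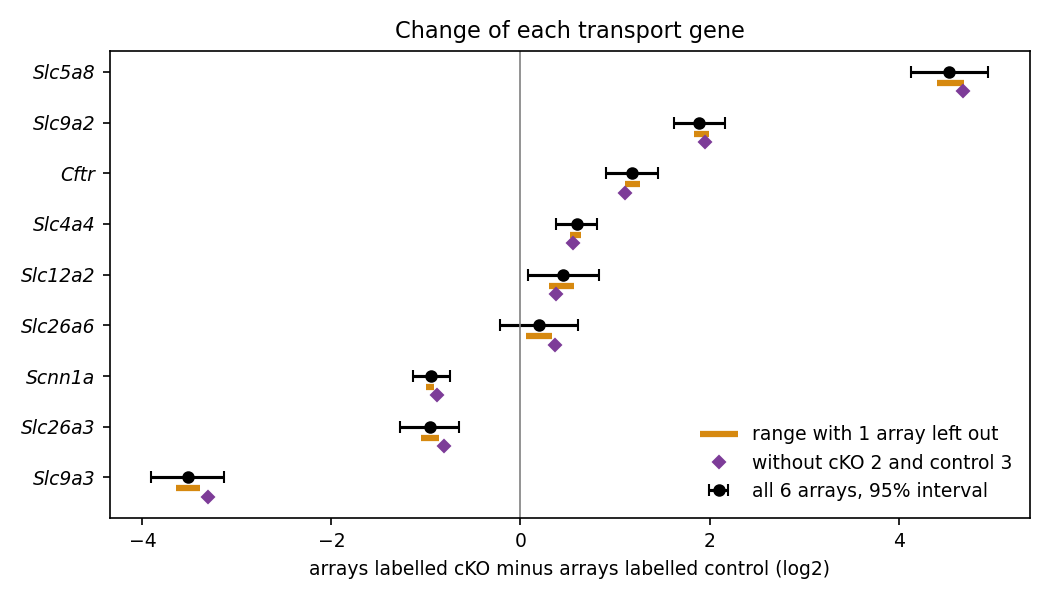
Log2 change of each of the 9 genes, arrays labelled cKO minus arrays labelled control (horizontal axis), as black points with 95% intervals, orange bars for the range when 1 array is left out and purple diamonds for the change without cKO 2 and control 3. The changes run from −3.52 for Slc9a3 to 4.54 for Slc5a8, and the interval of Slc26a6 (−0.22 to 0.61) includes 0.

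The calls of all 9 genes, passed or not, were the same with each of the 6 arrays left out in turn and with cKO 2 and control 3 both left out. Within the group labelled cKO, cKO 2 had the lowest value for 7 of the 9 genes, both genes that rose and genes that fell, whereas it had the lowest of the 3 values for 33.5% of all genes. The exceptions were Cftr, lowest on cKO 1, and Slc26a6, lowest on cKO 3. The part that the hepatocyte and blood cell RNA of cKO 2 has in this was not tested.

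Markers of other cell types that the preparation could hold were compared. Of the 8 hepatocyte markers 1 rose, Ambp (change 2.52 ± 0.41, limma adjusted p = 0.0106), also with each array left out. It stood at 11.49, 12.72 and 11.81 on the arrays labelled cKO, against 9.11, 9.14 and 10.20 on the arrays labelled control. The other 7 did not pass, with changes from −1.36 ± 2.37 for Alb to 0.85 ± 0.47 for Trf. Alb stood at 7.09, 13.66 and 6.96 on the arrays labelled cKO, against 12.04, 6.56 and 13.19 on the arrays labelled control. Its order across the arrays thus differed from that of Ambp. The median change of the 8 was 0.57. Of the erythroid, immune and endothelial markers 0 passed under limma. Of 7 pancreatic exocrine markers, which mark acinar cells and not ducts, 0 passed the test in either direction under limma, 0 had an unadjusted p under 0.05 and the median change was 0.80. The log2 of their summed level ran from 12.36 to 13.52 on the arrays labelled cKO and from 10.83 to 13.71 on the arrays labelled control. Of 8 mesenchymal and smooth muscle markers 0 passed under limma, 6 had an unadjusted p under 0.05 and their median change was 0.61. Their summed level ran from 11.40 to 12.43 on the arrays labelled cKO and from 11.07 to 11.31 on the arrays labelled control. Of 4 enteric neuron markers 1 fell, Ret, 3 had an unadjusted p under 0.05 and the median change was −0.47, with summed levels of 10.22 to 10.54 on the arrays labelled cKO and 11.14 to 11.24 on the arrays labelled control. None of these markers was at 0 on any array, but without a detection call this does not show that each was detected. Their part in the changes was not tested.

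Of 6 measured genes of colonic epithelium, where Slc5a8, Scnn1a and Slc26a3 are well known, 1 rose. That gene was Car1, carbonic anhydrase 1, at 10.12, 11.09 and 9.79 on the arrays labelled cKO, against 7.45, 6.08 and 7.15 on the arrays labelled control (change 3.44 ± 0.45, limma adjusted p = 0.0049). The other 5 did not pass with all 6 arrays. Cyp2c55 and Car4, carbonic anhydrase 4, differed by 1.09 ± 0.32 and 0.36 ± 0.14, with all arrays labelled cKO above all arrays labelled control (limma adjusted p = 0.0790 and 0.179). Aqp8, a water channel, and the posterior Hox genes Hoxd10 and Hoxd13 differed by −1.21 ± 0.72, −0.15 ± 0.16 and 0.00 ± 0.13, and their groups overlapped. With arrays left out, Aqp8 passed only without cKO 2, as lower (−2.02, limma adjusted p = 0.0257). Cyp2c55 passed only without cKO 2 and control 3 both, as higher (1.515, limma adjusted p = 0.0460). In all, 3 of the 6 genes had an unadjusted p under 0.05, and the median change was 0.18. The summed level of the colonic list ran from 10.78 to 12.32 on the arrays labelled cKO and from 10.85 to 11.62 on the arrays labelled control, so the groups overlapped.

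The wider set of ion and monocarboxylate transport genes was listed by function, with earlier results of this comparison known. Of 94 measured genes in 10 lists, 9 rose and 18 fell in the group labelled cKO, 28.7% in all against 12.9% of all genes tested. Their median change was −0.05, against −0.01 over all genes. Of the 27 genes, 16 passed, in the same direction, in each of the 6 fits that left out 1 array, and 20 passed without cKO 2 and control 3.

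Of 13 other measured sodium/proton exchangers and partner proteins, 4 fell and 0 rose (median −0.15). Chp2, a calcineurin-like protein that binds sodium/proton exchangers, stood at 8.95, 8.70 and 8.48 on the arrays labelled cKO, against 10.64, 10.84 and 10.86 on the arrays labelled control, a change of −2.07 ± 0.14 (limma adjusted p = 0.00043). The scaffold genes Slc9a3r1 and Pdzd3 fell by 0.70 ± 0.12 and 0.50 ± 0.10, and Ezr, ezrin, which ties such scaffolds to actin, by 0.48 ± 0.094 (limma adjusted p = 0.0128, 0.0247 and 0.0203). Those 3 calls were lost with control 2 or control 3 left out, that of Ezr also without cKO 3, and that of Pdzd3 also without control 1 or cKO 3 (adjusted p up to 0.0835). The partner genes Pdzk1, Chp1 and Slc9a3r2 did not pass, with differences of −0.31 ± 0.17, −0.15 ± 0.091 and 0.55 ± 0.16. For Slc9a3r2, a scaffold gene related to Slc9a3r1, all arrays labelled cKO lay above all arrays labelled control (limma adjusted p = 0.0733). None of the family's 6 other exchanger genes measured passed.

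The sodium channel list moved in both directions. Of 9 genes, 2 rose and 2 fell (median −0.16). Prss8, a membrane serine protease that activates the channel, fell by 0.86 ± 0.089 (limma adjusted p = 0.0020), and Tsc22d3, a glucocorticoid-induced gene, by 1.06 ± 0.13 (adjusted p = 0.0043). Hsd11b2, the enzyme that keeps glucocorticoids off the mineralocorticoid receptor, stood at 9.94, 9.05 and 9.74 on the arrays labelled cKO, against 7.60, 7.57 and 7.47 on the arrays labelled control, a rise of 2.03 ± 0.22 (limma adjusted p = 0.0026). Sgk1, a kinase that keeps the channel at the surface, rose by 0.49 ± 0.090 (adjusted p = 0.0170), a call lost without control 2 (0.0719) or control 3 (0.0639). The beta and gamma subunit genes Scnn1b and Scnn1g, named after their values were seen, did not pass, with differences of −0.12 ± 0.088 and −0.18 ± 0.10.

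The relatives of the anion exchangers and of the bicarbonate cotransporter mostly did not pass, like most genes tested, of which 12.9% passed. Of the 9 other SLC26 genes, 0 passed under limma, and the smallest adjusted p was that of Slc26a11 (−0.38 ± 0.10, adjusted p = 0.0603, which passed at 0.0234 without cKO 1). An unadjusted p under 0.05 was reached by 2 of the 9. Of 8 other SLC4 genes 2 fell. Slc4a5, a sodium bicarbonate cotransporter like Slc4a4, stood at 6.95, 6.99 and 6.68 on the arrays labelled cKO, against 8.98, 8.93 and 8.87 on the arrays labelled control, a change of −2.05 ± 0.10 (limma adjusted p = 0.0002). Its levels on the arrays labelled cKO may lie near background. Slc4a2, the basolateral anion exchanger, changed by −0.49 ± 0.10 (limma adjusted p = 0.0281), and passed with control 1 left out but not with any other array left out (adjusted p up to 0.0742). Slc4a1, the red cell anion exchanger gene, followed the blood cell markers at 12.53 on cKO 2, 7.56 on cKO 1 and 7.50 on cKO 3, against 10.75, 7.97 and 10.59 on the arrays labelled control.

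Among other chloride channels and related proteins, 2 of 8 rose and 3 fell (median 0.03). Clcn5, a chloride/proton exchanger of endosomes, fell by 1.68 ± 0.11 (limma adjusted p = 0.00043), and Ano6, a calcium-activated scramblase and channel, by 1.96 ± 0.14 (adjusted p = 0.00052). Best2, a bestrophin channel known from colonic goblet cells of the mouse, stood at 7.62, 7.40 and 7.76 on the arrays labelled cKO, against 6.02, 6.43 and 6.30 on the arrays labelled control, a rise of 1.34 ± 0.14 (limma adjusted p = 0.0021). The Best2 levels were low in both groups, and those on the arrays labelled control may lie near background. Ano9 fell by 0.59 ± 0.10 (adjusted p = 0.0136), a call lost without control 2 (0.0552) or control 3 (0.0577). Ano1, a calcium-activated chloride channel named after its values were seen, was the other gene that rose (0.39 ± 0.087, limma adjusted p = 0.0322), and it passed with cKO 1 left out but not with any other array left out (adjusted p up to 0.116).

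Few genes for the driving forces of secretion passed, as was true of all genes tested, of which 12.9% passed. Of 7 other SLC12 cotransporters 1 rose, Slc12a8, by 0.85 ± 0.17 (limma adjusted p = 0.0220). That call was lost without cKO 1, cKO 3, control 2 or control 3 (adjusted p up to 0.0764). Of 6 potassium channel genes 0 passed under limma, and 0 had an unadjusted p under 0.05. Kcnn4 stood at 10.16 on cKO 2, 8.45 on cKO 1 and 8.69 on cKO 3, against 8.49, 8.04 and 8.16 on the arrays labelled control. The array cKO 2 also had the highest hepatocyte, erythroid, immune and endothelial levels, and their part in the Kcnn4 value was not tested. Of 11 sodium pump and FXYD genes 1 rose, Fxyd3, a regulator of the pump, which stood at 10.51, 10.05 and 10.17 on the arrays labelled cKO, against 9.17, 9.10 and 8.85 on the arrays labelled control (change 1.20 ± 0.15, limma adjusted p = 0.0037).

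Signals that switch fluid secretion moved both ways, with 1 of 7 genes higher and 2 lower (median −0.08). Guca2a, guanylin, the luminal peptide whose receptor raises cGMP and opens the Cftr channel, rose by 0.92 ± 0.089 (limma adjusted p = 0.0016). Prkg2, the cGMP-dependent kinase that phosphorylates that channel, fell by 0.67 ± 0.10 (adjusted p = 0.0090), and Vipr1, a receptor of vasoactive intestinal peptide, fell by 0.67 ± 0.099 (adjusted p = 0.0075). Guca2b, uroguanylin, differed by −0.42 ± 0.13 (adjusted p = 0.0847) and passed when cKO 1 was left out (adjusted p = 0.0220).

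Of 16 other genes of monocarboxylate transport, 2 rose and 5 fell (median −0.03). Slc16a3, a proton-coupled lactate carrier, stood at 9.53, 9.70 and 9.45 on the arrays labelled cKO, against 8.30, 8.38 and 8.23 on the arrays labelled control, a rise of 1.26 ± 0.092 (limma adjusted p = 0.00061). Slc16a13, of the same family, fell by 1.32 ± 0.10, Slc16a6 by 1.02 ± 0.15 and Slc16a10, a carrier of aromatic amino acids, by 1.04 ± 0.17 (limma adjusted p = 0.00075, 0.0070 and 0.0108). The closest functional relatives of Slc5a8 in the list, named after their values were seen, did not pass. Slc5a12, the other sodium-coupled monocarboxylate carrier, differed by −0.06 ± 0.15, and Slc16a1, the main proton-coupled carrier, by 0.14 ± 0.21. The mean level of Slc5a12 was 6.86 in the group labelled cKO and 6.93 in the group labelled control, which may lie near background.

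**Figure D4:**
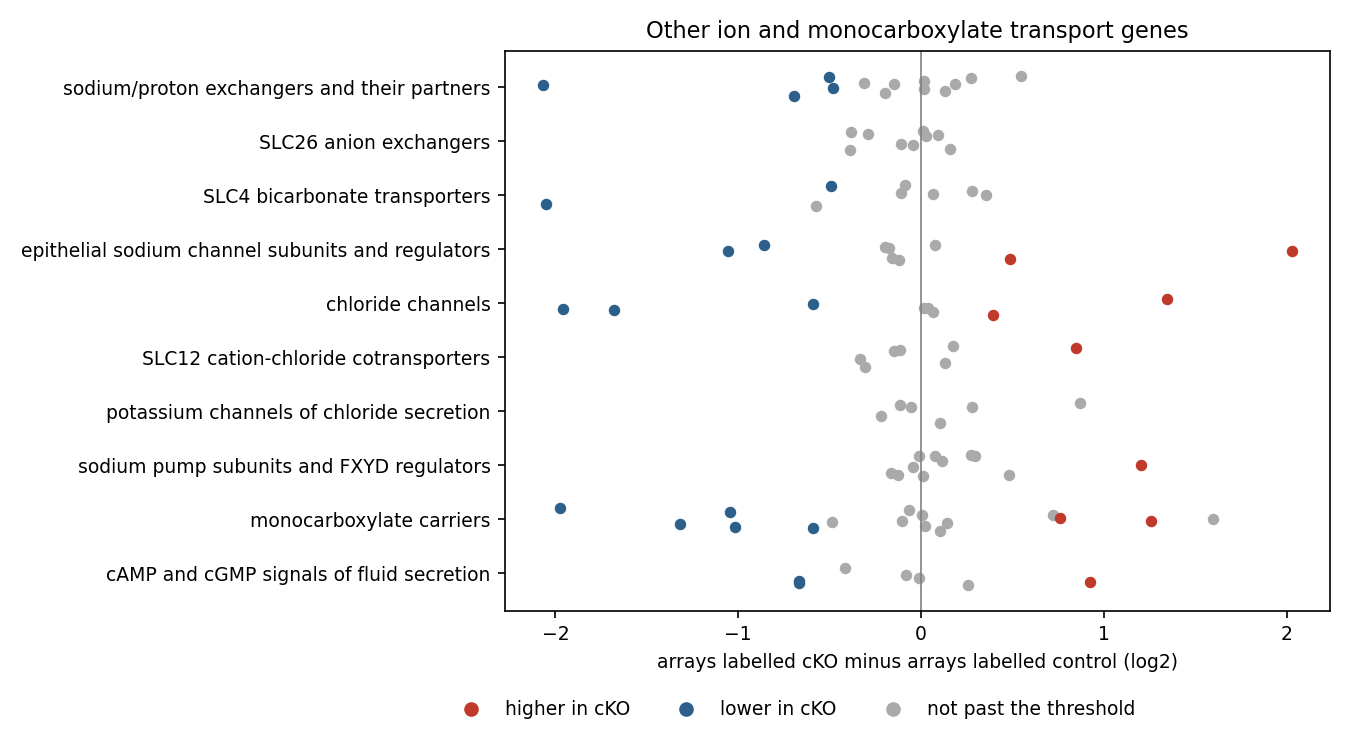
Log2 change, arrays labelled cKO minus arrays labelled control (horizontal axis), of 94 related genes in 10 lists grouped by function, 1 point per gene, with red for genes past the threshold and higher, blue for genes past it and lower and grey for the rest. Points run from −2.07 (Chp2) to 2.03 (Hsd11b2), and the SLC26 and potassium channel lists hold no coloured point.

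The genes whose 6 values lay nearest to those of Slc5a8, after each gene's own mean was subtracted, were Tmigd1, Slc10a2 and Reg3b, with root mean square differences of 0.23, 0.31 and 0.37 on the log2 scale over 6 arrays. Slc10a2 is the ileal sodium-bile acid transporter and Reg3b an antimicrobial lectin. The nearest to Slc9a3 were Asah2, neutral ceramidase, Tdrp and Gda, guanine deaminase, with differences of 0.15, 0.17 and 0.19. With 2 groups of arrays this measure mostly finds changes of the same size and direction.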

How the data were processed

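RNA of isolated E18.5 small intestinal epithelium was measured on 6 arrays, 3 labelled Gata4Gata6 cKO and 3 labelled control. Per the labels' design text, the authors analysed the arrays with dChip, and the deposited values are 1 log2 level per probe set and array for 35512 probe sets. The sources used here do not give the dChip version, background correction, normalization, expression model or log base; the log2 scale was inferred from the range of 0 to 14.25. Detection calls were not used here, so low levels can hide larger changes, and the number of arrays limits the precision.

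Probe sets with exactly 1 gene in the platform annotation (21789) were kept, gene IDs were matched to RefSeq GRCm38.p6 (21698 of them), and the probe set with the highest mean stood for each of 19938 genes. Levels were compared with limma 3.58.1 (lmFit, eBayes, two-sided, no covariate) in R 4.3.3 with Benjamini-Hochberg adjustment over all genes at 0.05. The procedure was also run on simulated data with independent noise for each gene. Such data hold no signal that many genes share on an array. Fold changes are 2 to the power of the log2 change, and intervals are 95% intervals from the moderated SE, not adjusted for the number of genes. The members and lists were chosen with earlier results of these data known. Named are the 9 genes, Gata4 and Gata6, up to 4 genes per related list by smallest adjusted p, and 3 nearest patterns for the largest rise and fall. Markers are named where a result touches them. The 14 listed related or marker genes without a 1-gene probe set were not analysed here. No 2 arrays held the same values.

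Alternatives were quantile normalization, median centring, log2(value + 32) on the linear scale, array weights, a filter on dim genes (those in the lower tertile of mean level), eBayes with a trend and robust, averaging the probe sets of a gene, a replicate block, each array left out, and control 3 and cKO 2 both left out.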

Additional observations from a re-analysis of the deposited data

How the results depend on the processing

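Under the 15 alternatives the 9 transport genes kept their direction, and 7 of them passed the threshold in all but 1. With the replicate number as a block 6 passed, and Slc4a4 did not. The replicate numbers are not stated to pair arrays. Same-numbered arrays deviated from their group means with correlations of −0.02, −0.43 and −0.18 across genes, and 0 of the 3 arrays labelled cKO correlated best with its own number. With the block 1449 of all genes passed, against 2580 without it, and 19 related genes against 27. Of all genes 1586 passed without cKO 2 and control 3, and 1482 to 2281 with 1 array left out, the fewest without control 2. Of the related genes 16 to 26 passed with 1 array left out, 16 without control 2 and 17 without control 3. The block also ended the call of Gata4 (adjusted p = 0.0521), and leaving out cKO 2 and control 3 ended those of Gata4 (0.0646) and Gata6 (0.0503). For 70 other genes, those of the naming rule and the rest of those given with a change, 946 of 1038 values kept direction and side of the threshold, 68 lost the call, 15 gained it and 9 changed direction, and the cause was not tested. The 9 were of genes that did not pass. With 1 array left out, Slc4a1 ran from −2.24 to 0.28, Slc5a12 from −0.19 to 0.07, Slc16a1 from −0.09 to 0.28 and Fxyd1 from −0.25 to 0.90, while Hoxd10 ran from −0.31 to −0.02. Without cKO 2 and control 3, Hoxd10 was at 0.05, Slc5a12 at 0.15 and Fxyd1 at −0.05. The 4 transport genes with low levels in 1 group, Slc9a3, Scnn1a, Slc5a8 and Slc9a2, have folds that background may shrink.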

Other observations

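Several genes of the related transport lists stood apart on single arrays and are named after their values were seen. Slc16a7, a proton-coupled pyruvate carrier, stood at 9.24 on cKO 2, 6.74 on cKO 1 and 7.18 on cKO 3. It stood at 6.07, 5.72 and 6.58 on the arrays labelled control, all below the arrays labelled cKO. With all 6 arrays it did not pass (limma adjusted p = 0.175). Without cKO 2 and control 3 it rose by 1.065 and passed (limma adjusted p = 0.0411). Fxyd1, a regulator of the sodium pump, stood at 10.09 on cKO 2, while the other 5 arrays lay between 7.80 and 8.55. Emb, a partner protein of monocarboxylate carriers, stood at 8.23 on cKO 2, 6.29 on cKO 1 and 6.04 on cKO 3, against 5.62 to 6.52 on the arrays labelled control. Kcnq1, the potassium channel that recycles potassium during chloride secretion, stood at 9.49 on control 3, while the other 5 arrays lay between 10.14 and 10.47. Slc16a12, a creatine carrier in humans and 1 of the 5 monocarboxylate carrier genes that fell, stood at 7.59, 9.11 and 8.21 on the arrays labelled cKO, against 10.20, 10.60 and 10.03 on the arrays labelled control, and fell by 1.97 ± 0.38 on the log2 scale (limma adjusted p = 0.0194). That call was lost without cKO 3 or any 1 array labelled control (adjusted p up to 0.0766).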
